A study of Mus musculus with 16 samples.

Results

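The genes described here are the protein-coding genes of 300 kb or more on mouse chromosomes 1 to 19. They were chosen by their length in the RefSeq annotation of GRCm38.p6, without use of any measured value, and 533 of 20665 protein-coding genes met the rule. Their median length was 450.8 kb, 216 of them reached 500 kb and 55 reached 1000 kb. The longest, Ptprd, spans 2270506 bp of chromosome 4 (75941237 to 78211742). Each gene was divided into its body, which begins 2 kb inside each end, and end windows reaching 2 kb to either side of its first and last base. The bodies together cover 299.5 Mb. The 2 histone modifications H3K27ac and H3K4me3 had been mapped by ChIP-seq on native chromatin, cut with micrococcal nuclease, from late 2-cell embryos of the mouse at 36 h from fertilization. Control embryos had received water at the zygote stage, and mutant embryos had received mRNA of a mutant Hdac1, a histone deacetylase. The labels name neither the mutation nor the mouse strain, and only mRNA was injected, so the embryos keep their own Hdac1 gene. Each mark in each condition has 2 immunoprecipitation and 2 input libraries but 1 deposited peak list, so 4 lists were compared and no value below has a replicate error. The depth of the libraries is unknown, no test of the conditions was possible, and "higher" and "lower" describe these lists.

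Very long mammalian genes are rich in genes of the nervous system, such as synaptic adhesion molecules, ion channels and receptors, and most of their length is intron. H3K4me3 is laid down mainly at promoters, above all at those rich in CpG dinucleotides, and H3K27ac marks active promoters and enhancers. In the mouse, the late 2-cell stage is when the embryo's own genome becomes broadly transcribed. A very long gene takes hours to transcribe, and several of these genes, such as Fhit and Wwox, lie at common fragile sites, where chromosomes tend to break under replication stress. The comparison of control and mutant lists addresses where both marks lie after injection of the mutant Hdac1 mRNA.

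The start sequences of 6 long genes are printed first, because H3K4me3 at the starts went with their CpG number, whereas the bodies were sparsely marked in every list. Each is the RefSeq window from 250 bases before to 50 bases after an annotated start on GRCm38.p6, read 5′ to 3′ on the strand of the gene, and capitals show each CpG.
Rere: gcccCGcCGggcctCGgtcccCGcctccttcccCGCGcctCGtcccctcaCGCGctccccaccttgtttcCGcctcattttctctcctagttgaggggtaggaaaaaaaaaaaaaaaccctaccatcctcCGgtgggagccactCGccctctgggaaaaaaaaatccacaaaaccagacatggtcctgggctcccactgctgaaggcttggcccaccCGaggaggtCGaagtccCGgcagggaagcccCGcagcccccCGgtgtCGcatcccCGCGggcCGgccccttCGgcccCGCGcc
Hecw2: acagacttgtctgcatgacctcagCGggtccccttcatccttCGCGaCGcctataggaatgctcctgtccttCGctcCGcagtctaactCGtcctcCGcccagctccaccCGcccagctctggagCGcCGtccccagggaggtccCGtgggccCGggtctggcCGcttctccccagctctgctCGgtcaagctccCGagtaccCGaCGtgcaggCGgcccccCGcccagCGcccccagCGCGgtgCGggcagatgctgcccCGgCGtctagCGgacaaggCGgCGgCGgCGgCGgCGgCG
Ube2e2: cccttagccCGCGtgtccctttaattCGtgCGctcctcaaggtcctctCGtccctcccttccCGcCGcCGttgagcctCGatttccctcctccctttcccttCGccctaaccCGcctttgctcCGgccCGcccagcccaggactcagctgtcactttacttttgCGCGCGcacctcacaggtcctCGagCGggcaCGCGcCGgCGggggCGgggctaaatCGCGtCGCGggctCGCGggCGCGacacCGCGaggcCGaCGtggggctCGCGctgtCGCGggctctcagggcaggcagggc
Fbxl7: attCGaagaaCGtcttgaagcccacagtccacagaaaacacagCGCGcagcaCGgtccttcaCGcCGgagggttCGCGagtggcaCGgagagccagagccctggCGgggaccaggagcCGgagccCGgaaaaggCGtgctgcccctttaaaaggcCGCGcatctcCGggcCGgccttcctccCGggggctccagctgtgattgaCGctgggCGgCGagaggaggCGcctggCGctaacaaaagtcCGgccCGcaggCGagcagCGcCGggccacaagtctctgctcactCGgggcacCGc
Robo2: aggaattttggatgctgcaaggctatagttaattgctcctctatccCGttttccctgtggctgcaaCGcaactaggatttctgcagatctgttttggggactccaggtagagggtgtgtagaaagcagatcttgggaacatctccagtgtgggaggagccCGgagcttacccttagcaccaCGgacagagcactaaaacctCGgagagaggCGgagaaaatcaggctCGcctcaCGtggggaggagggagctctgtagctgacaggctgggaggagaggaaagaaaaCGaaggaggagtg
Hdac9: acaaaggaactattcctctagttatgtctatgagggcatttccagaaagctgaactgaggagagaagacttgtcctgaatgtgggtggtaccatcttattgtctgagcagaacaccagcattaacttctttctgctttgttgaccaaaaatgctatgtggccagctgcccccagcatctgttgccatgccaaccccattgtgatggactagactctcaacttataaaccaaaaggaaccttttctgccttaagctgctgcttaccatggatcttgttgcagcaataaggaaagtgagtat

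The 6 were picked after their values were seen, to show the states a start can have. The window of Rere (chromosome 4, 150281666 to 150281965, plus strand) holds 24 CpG, and a peak of both marks lay within 2 kb of its start in both conditions. That of Hecw2 (chromosome 1, 54194985 to 54195284, minus strand) holds 34 CpG, with H3K4me3 in both conditions and H3K27ac in the mutant list alone. At Ube2e2 (chromosome 14, 18893722 to 18894021, minus strand) there are 39 CpG, and both marks were called in control but neither in mutant. The Fbxl7 window (chromosome 15, 26895515 to 26895814, minus strand) holds 31 CpG, with H3K4me3 in the control list alone. Robo2 (chromosome 16, 75447244 to 75447543, minus strand) has 9 CpG and no peak of either mark in any list. Hdac9 (chromosome 12, 34917046 to 34917345, minus strand), itself a deacetylase gene, has 0 CpG and an H3K4me3 peak in the mutant list alone.

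The bodies of long genes were sparsely covered by both marks, and both marks covered more of them in the mutant lists. H3K27ac peaks lay over 9.33 Mb of the bodies in control and 11.9 Mb in mutant, a ratio of 1.28. H3K4me3 peaks lay over 8.19 Mb and 10.3 Mb, a ratio of 1.26. Pooled over the bodies of shorter protein-coding genes, H3K27ac went the other way, with 110.5 Mb in control, 96.8 Mb in mutant and a ratio of 0.876, while the H3K4me3 ratio was 1.07. Of the shorter genes of 5 kb or more, 6644 had lower and 6024 higher H3K27ac coverage in mutant, while the median over these genes was 7.30% in the control and 8.95% in the mutant list. Sequence more than 2 kb from any protein-coding gene resembled long bodies in direction, with ratios of 1.12 for H3K27ac and 1.15 for H3K4me3.

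Pooled coverage fell with gene length in all 4 lists. Pooled over the genes of a class, control H3K27ac peaks covered 27.6% of body bases in genes of 5 to 30 kb, 21.8% at 30 to 100 kb, 10.9% at 100 to 300 kb, 4.25% at 300 to 500 kb, 2.78% at 500 to 1000 kb and 1.79% in genes of 1000 kb or more. The mutant H3K27ac values in the same order were 22.5%, 18.4%, 10.8%, 5.21%, 3.71% and 2.48%. The 2 pooled series thus crossed near 100 to 300 kb, where the ratio of mutant to control was 0.993, and the ratio climbed from 0.816 in the shortest class to 1.38 in the longest. The H3K27ac medians over genes did not cross and were higher in mutant in each class. In control and mutant they were 5.16% and 6.11% at 5 to 30 kb, 11.97% and 12.8% at 30 to 100 kb, and 4.90% and 7.23% at 100 to 300 kb. H3K4me3 covered 26.1%, 16.5%, 7.80%, 3.52%, 2.81% and 1.69% in control, and 28.5%, 16.9%, 8.98%, 4.55%, 3.48% and 2.01% in mutant, so its mutant list was above control in each of these classes. The plot of coverage by gene length shows both series for each mark.

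**Figure D1:**
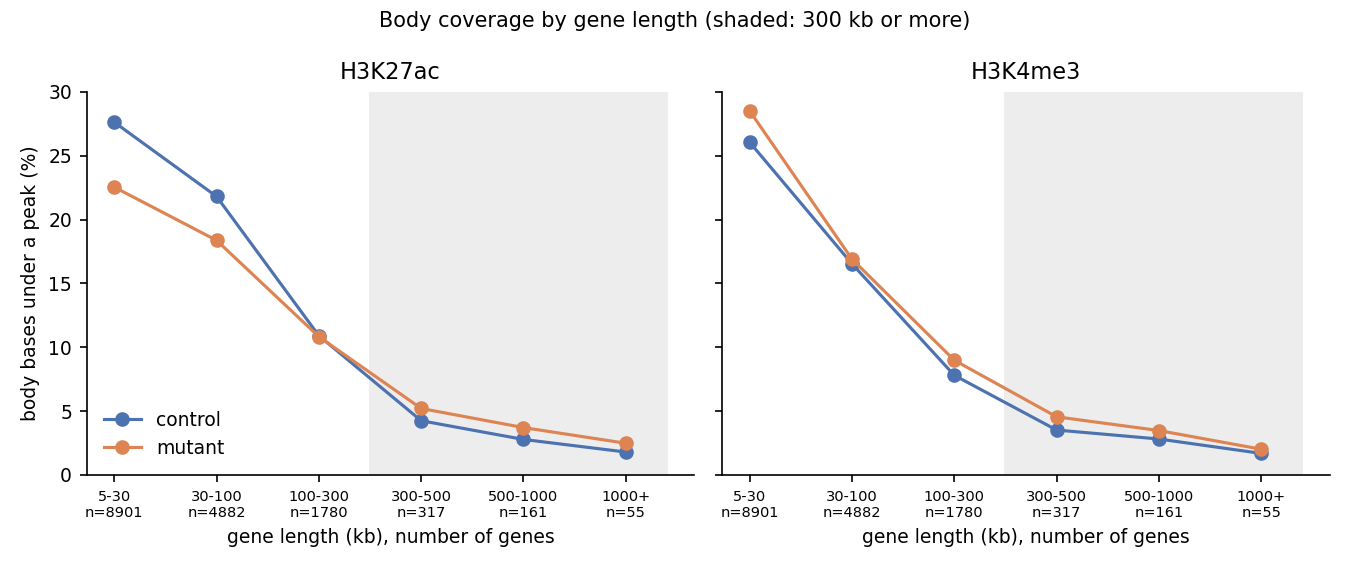
Percent of body bases under a peak (y axis) for protein-coding genes grouped by length in kb (x axis, with the number of genes), for H3K27ac on the left and H3K4me3 on the right; blue is the control list, orange the mutant list, and grey marks genes of 300 kb or more. Values are pooled over the genes of a class. For H3K27ac the mutant line is below control in short genes (22.5% against 27.6% at 5 to 30 kb) and above it in long genes (2.48% against 1.79% at 1000 kb or more).

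Gene by gene, the median long gene had H3K27ac peaks over 1.91% of its body in control against 3.19% in mutant, and H3K4me3 peaks over 2.00% against 2.70%. Among all 16096 genes the medians were also higher in mutant, at 6.47% and 8.23% for H3K27ac and 9.08% and 12.1% for H3K4me3. The quartiles for H3K27ac were 0.865% and 4.38% in control and 1.54% and 5.93% in mutant. H3K27ac coverage was higher in the mutant list in 349 long genes (65.5%, 95% Wilson interval 61.3 to 69.4), against 39.6% of all 16096 protein-coding genes of 5 kb or more, and lower in 184 (34.5%, against 42.4%). The interval covers counting error only, and neighbouring genes share the same libraries. H3K4me3 coverage was higher in 347 long genes (65.1%, against 48.5%) and lower in 183 (34.3%, against 35.1%). H3K27ac values were equal in both lists in 2895 of the 16096 genes and in 0 of the long genes. For H3K4me3 they were equal in 2645 and in 3. Such ties lower the shares of all genes given as higher or lower. A difference of at least 2 percentage points upward was seen for H3K27ac in 154 long genes (28.9%, against 31.6% of all genes) and downward in 53 (9.94%, against 35.4%). For H3K4me3 these counts were 119 (22.3%, against 39.2%) and 30 (5.63%, against 27.9%). A gene with under 2% of its body covered in control cannot fall by 2 points. The control medians of long genes were near that limit, at 1.91% for H3K27ac and 2.00% for H3K4me3. Both marks were higher in 248 long genes, both were lower in 82, H3K27ac alone was higher in 101 and H3K4me3 alone in 99. These joint counts were not made over all protein-coding genes.

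The size of the H3K27ac difference depended on how narrow peaks were treated. The mutant H3K27ac list is the longer one, with 114737 peaks on these chromosomes against 73320, and when it was reduced to the same number by dropping its 41417 narrowest peaks, all under 690 bp or at that width, the ratio of covered body bases came to 1.09. H3K27ac coverage was then lower in mutant in 46.9% of long genes. This reduction takes peaks from the mutant list alone, so it can only lower the ratio. With peaks under 1 kb left out of both lists, the ratio was 1.19. With the mutant list reduced to equal size, the ratio was 0.794 in genes of 5 to 30 kb and 0.928 in those of 100 to 300 kb, and long genes were run there as 1 class. The H3K4me3 lists are of nearly equal size and their ratio stayed at 1.26.

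**Figure D2:**
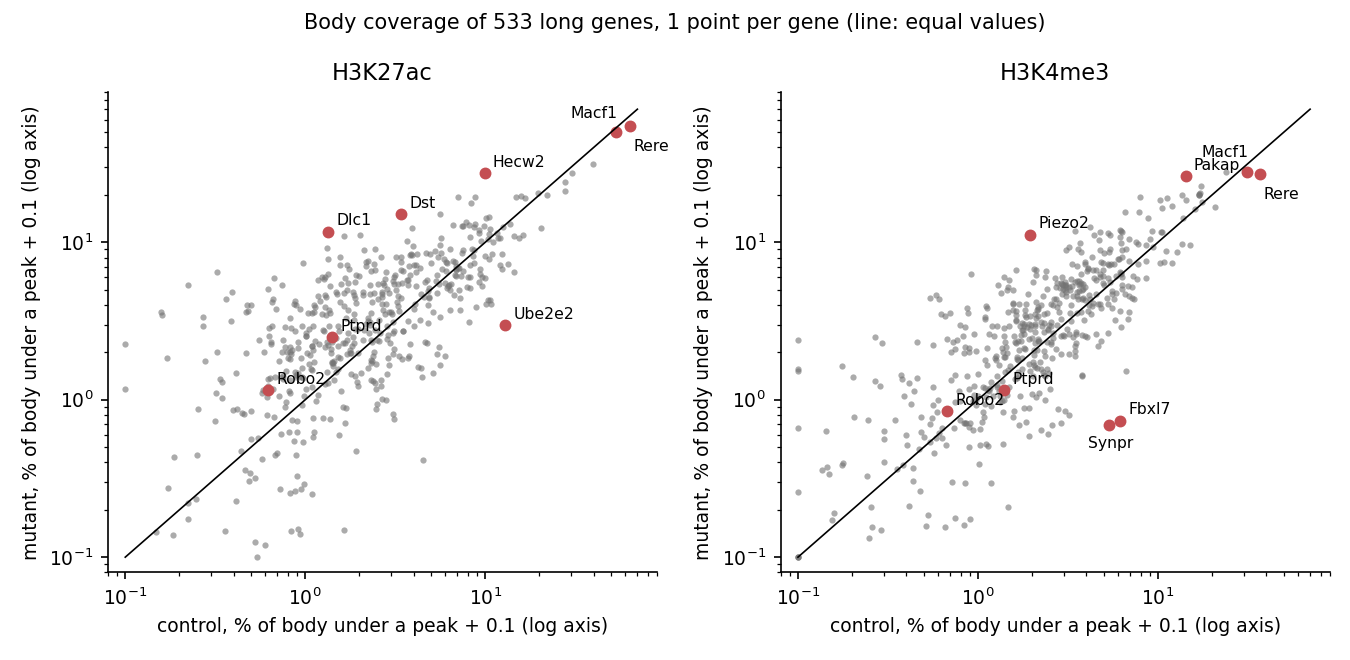
Percent of each body under a peak in control (x axis) and mutant (y axis), on log axes with 0.1 added, for 533 long genes, 1 point per gene, with the line of equal values; H3K27ac is on the left, H3K4me3 on the right, and red points are named genes. For H3K27ac 349 points lie above the line, Dlc1 and Hecw2 far above it, and Ube2e2 lies far below it.

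The 5 largest gains of H3K27ac coverage were at Hecw2, Dner, Dst, Pakap and Dlc1. Hecw2, a ubiquitin ligase gene, had 9.80% of its body under H3K27ac in control and 27.3% in mutant, and 10.2% and 18.5% under H3K4me3. Dner, which encodes a Notch ligand of neurons, had 6.92% and 19.2% for H3K27ac and 7.80% and 19.4% for H3K4me3. Dst, a spectraplakin that links the parts of the cytoskeleton, went from 3.30% to 14.95% for H3K27ac and from 3.58% to 9.72% for H3K4me3. These 3 genes lie on chromosome 1, where Hecw2 spans 53806872 to 54195034. Pakap, whose products anchor protein kinase A, had 8.69% and 19.3% for H3K27ac and 14.1% and 26.2% for H3K4me3. Dlc1, which encodes a GTPase-activating protein, had 1.24% and 11.6% for H3K27ac, in 5 control and 26 mutant peaks, and 6.13% and 11.6% for H3K4me3. At each of the 5 both marks covered more of the body in mutant.

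The largest gains of H3K4me3 coverage named Pakap and Dner again, followed by Piezo2, Rad51b and Fbxl17. Piezo2, a channel opened by touch, had 1.85% of its body under H3K4me3 in control and 11.1% in mutant, and 0.874% and 7.26% under H3K27ac. Rad51b, which acts in homologous recombination, had 6.46% and 15.4% for H3K4me3 and 8.27% and 17.7% for H3K27ac. Fbxl17, a substrate receptor of a ubiquitin ligase, had 3.34% and 11.7% for H3K4me3 and 5.54% and 8.43% for H3K27ac.

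The largest losses of H3K27ac coverage lay in bodies that were well covered in control. Ube2e2, a ubiquitin-conjugating enzyme gene (chromosome 14, 18573563 to 18894284), had 12.8% in control and 2.87% in mutant. Its widest control peak, of 20885 bp (chromosome 14, 18594052 to 18614936), faced a widest mutant peak of 4638 bp. Its H3K4me3 body coverage was 4.11% and 4.25%, so the body loss concerned H3K27ac, whereas its start, printed above, lacked both marks in mutant. Rere, an atrophin family corepressor, had 63.2% and 54.8% for H3K27ac, and Btbd9, a BTB domain gene, had 39.7% and 31.3%. Apbb2, an adaptor that binds the amyloid precursor protein, had 14.3% and 6.35%, and Foxn3, a forkhead repressor, had 20.2% and 12.3%. H3K4me3 at these last 3 genes did not move together, with 14.3% and 18.5% at Btbd9, 8.44% and 5.87% at Apbb2, and 10.7% and 7.35% at Foxn3.

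For H3K4me3, the largest loss was again at Rere, from 36.6% to 27.03% of the body. Bcas3 had 15.03% and 9.47%. Fbxl7 had 6.08% of its body under H3K4me3 in control and 0.637% in mutant, while its H3K27ac was 5.998% and 5.06%. At the imprinted gene Snrpn, H3K4me3 covered 6.53% and 1.42% and H3K27ac 9.93% and 3.98%. Synpr, which encodes a synaptic vesicle protein, had 5.24% and 0.594% for H3K4me3 and 9.49% and 5.94% for H3K27ac. The widest H3K4me3 peaks over Fbxl7, Snrpn and Synpr measured 9132, 11151 and 11026 bp in control, and 668, 2618 and 641 bp in mutant.

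A few long genes were heavily marked. Rere and Macf1, a spectraplakin, lie on chromosome 4 (150281511 to 150621966 and 123349633 to 123687802) and led both marks in control. Macf1 had 53.3% of its body under H3K27ac in control and 49.9% in mutant, and 31.2% and 28.0% under H3K4me3. The widest control H3K27ac peak over any long body lay at Macf1 and measured 41995 bp (chromosome 4, 123607414 to 123649408), and the next, of 40483 bp, lay at Rere (150472988 to 150513470). In mutant the widest were 28390 bp at Rere and 23257 bp at Btbd9. Baz2b, a bromodomain gene, had 30.3% and 27.5% for H3K27ac and 20.6% and 16.7% for H3K4me3, and Bcas3 had 27.7% and 24.03% for H3K27ac. For H3K27ac all 5 leading genes were thus lower in mutant, a description of genes picked for their control value. Among the leaders for H3K4me3, Slc39a11, of the zinc transporter family, had 23.7% and 28.0%, and Nedd4l, a ubiquitin ligase gene, had 17.5% and 17.99%.

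The widest H3K4me3 peaks overlapping long bodies, 2 per list, lay at gene ends. A control peak of 39318 bp (chromosome 1, 21363807 to 21403124) extended into the far end of Kcnq5, a potassium channel gene, and another of 24226 bp (chromosome 11, 33500330 to 33524555) covered the start of Ranbp17. The widest mutant H3K4me3 peaks were 25346 bp over the start of Mtus2 (chromosome 5, 147949581 to 147974926) and 23017 bp over the start of Macf1 (chromosome 4, 123675467 to 123698483).

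The 5 longest genes were sparsely covered and had the same direction for each mark. Ptprd, a receptor tyrosine phosphatase of synapses, had 1.30% of its body under H3K27ac in control and 2.39% in mutant, in 35 and 70 peaks, and 1.29% and 1.05% under H3K4me3. Cntnap2, a neurexin family adhesion gene, had 0.828% and 1.30% for H3K27ac and 0.622% and 0.202% for H3K4me3. Lsamp, a neuronal adhesion gene, had 0.728% and 2.07% for H3K27ac and 1.05% and 1.03% for H3K4me3. Lrp1b, a lipoprotein receptor relative, had 0.790% and 1.34% for H3K27ac and 1.36% and 0.969% for H3K4me3. Macrod2, which encodes an ADP-ribose hydrolase, had 1.10% and 2.16% for H3K27ac and 1.25% and 1.22% for H3K4me3. In all 5 the H3K27ac value was higher and the H3K4me3 value lower in mutant, although for Lsamp and Macrod2 the H3K4me3 values were nearly equal.

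At the middle of the ranking by control H3K27ac stood Ank3, an ankyrin gene, with 1.89% and 5.98%, and Mcc with 1.91% and 10.96%. At the middle for H3K4me3 stood Kcnn2, a potassium channel gene, with 2.00% and 6.10%, and Fggy, a carbohydrate kinase gene, with 2.00% and 3.22%. Body peaks were absent from few genes. No H3K27ac peak lay over the bodies of Myt1l and Tox in control or of Lrfn5 in mutant. For H3K4me3 there were 8 such genes in control and 3 in mutant, and 0 long genes lacked body peaks in all 4 lists. Of all 16096 genes of 5 kb or more, 4691 had no H3K27ac body peak in control and 4196 in mutant. For H3K4me3 these were 3715 and 3243.

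H3K27ac peaks in long bodies were more numerous in the mutant list, as were H3K27ac peaks over all of chromosomes 1 to 19. In every list, peaks in long bodies were narrower in the median than all peaks on these chromosomes. By midpoint, 6169 control and 10201 mutant H3K27ac peaks lay in long bodies, and 5373 and 6144 H3K4me3 peaks. The whole lists on chromosomes 1 to 19 held 73320 and 114737 H3K27ac peaks, and 83220 and 83290 H3K4me3 peaks. Median widths were 624 and 661 bp for H3K27ac, against 1205 and 1088 bp over chromosomes 1 to 19, and 892 and 909 bp for H3K4me3, against 1695 and 1765 bp. Peaks wider than 5 kb made up 7.18% of control and 3.12% of mutant H3K27ac peaks in long bodies, and 4.32% and 6.75% of H3K4me3 peaks. Over all peaks on chromosomes 1 to 19 the shares moved in the same directions, from 20.3% to 10.4% for H3K27ac and from 16.7% to 20.5% for H3K4me3. For H3K27ac, the 443 wide control peaks and 318 wide mutant peaks went against the higher total, so the added mutant sequence lay in narrower peaks. Peaks of 1 to 2 kb held 1.26 Mb in control and 2.83 Mb in mutant, those of 2 to 5 kb held 2.46 Mb and 3.88 Mb, and those up to 500 bp held 0.774 Mb and 1.10 Mb. Peaks over 10 kb held 1.52 Mb and 0.569 Mb. For H3K4me3 the wide classes grew, from 200 to 359 peaks of 5 to 10 kb and from 32 to 56 peaks above 10 kb. They were also larger in mutant over all chromosomes 1 to 19, with 9818 and 11616 peaks of 5 to 10 kb and 4070 and 5497 above 10 kb.

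Fewer of the marked places in long bodies were shared between the conditions than in shorter bodies or over all peaks. Of the control H3K27ac bases in long bodies, 26.2% were also covered in mutant, against 44.2% in the bodies of shorter genes. For H3K4me3 the shares were 33.6% and 55.1%. Of single H3K27ac peaks in long bodies, 20.2% (95% Wilson interval 19.2 to 21.2) of the control and 14.2% (13.5 to 14.9) of the mutant peaks met a peak of the other condition, against 39.5% and 32.8% of all peaks on chromosomes 1 to 19. For H3K4me3 these shares were 25.5% (24.3 to 26.7) and 21.8% (20.8 to 22.9), against 48.7% and 45.9%. Width went with this overlap in long bodies and over all peaks. Of control H3K27ac peaks up to 500 bp in long bodies, 6.84% were met in the mutant list (11.6% of all such peaks), as were 90 of the 100 peaks above 10 kb (93.6% of all). For control H3K4me3 the shares were 8.18% (14.96% of all) and 84.4% (97.3% of all). The mutant H3K27ac list covered 4.01% of long bodies and 15.6% of shorter ones, and the parts of coverage and of sequencing depth in these shares were not tested.

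The 2 marks shared a smaller part of their bases in long bodies than in shorter ones. Of the H3K4me3 bases there, 26.8% were under H3K27ac in control and 19.8% in mutant. In the bodies of shorter genes the shares were 63.04% and 38.4%. H3K27ac itself covered 3.13% and 4.01% of long bodies and 17.8% and 15.6% of shorter ones, and the part of this in the lower share was not tested. In absolute terms, both marks shared 2.20 Mb of long bodies in control and 2.05 Mb in mutant, although each mark covered more in mutant.

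Coverage was next followed from the ends inward. Direction could be assigned to the 405 long genes with a start in the RefSeq start table, and a gene's start is here its outer end on that side. H3K4me3 formed a peak at the start, covering 44.6% of control bases in the 2 kb before it and 63.4% in the 2 kb after it, 20.5% from 2 to 5 kb, 7.84% from 5 to 10 kb and 2.59% from 100 to 150 kb inside. In the mutant list the values were 48.02%, 65.5%, 27.7%, 11.2% and 3.12%. Of the distances followed, the H3K4me3 difference was largest from 2 to 5 kb inside the start. Genes of 100 to 300 kb had a larger difference there, with 27.1% in control and 39.96% in mutant. H3K27ac was far flatter, with 9.10% and 11.4% on the 2 sides of the start in control, 6.29% at 2 to 5 kb and 3.15% at 100 to 150 kb, and with 12.4%, 13.1%, 8.33% and 4.11% in mutant. At the far end, the 2 kb inside the gene held 2.89% H3K27ac in control and 5.84% in mutant, the lowest control value of that profile. H3K4me3 showed no peak at the far end, with 4.14% and 5.31% in the last 2 kb of the gene, below the 10.8% and 12.0% found 5 to 10 kb outside it. Genes of 100 to 300 kb had a start of similar height for H3K4me3 (65.7% and 68.5% in the first 2 kb) and more H3K27ac there (23.8% and 23.96%).

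**Figure D3:**
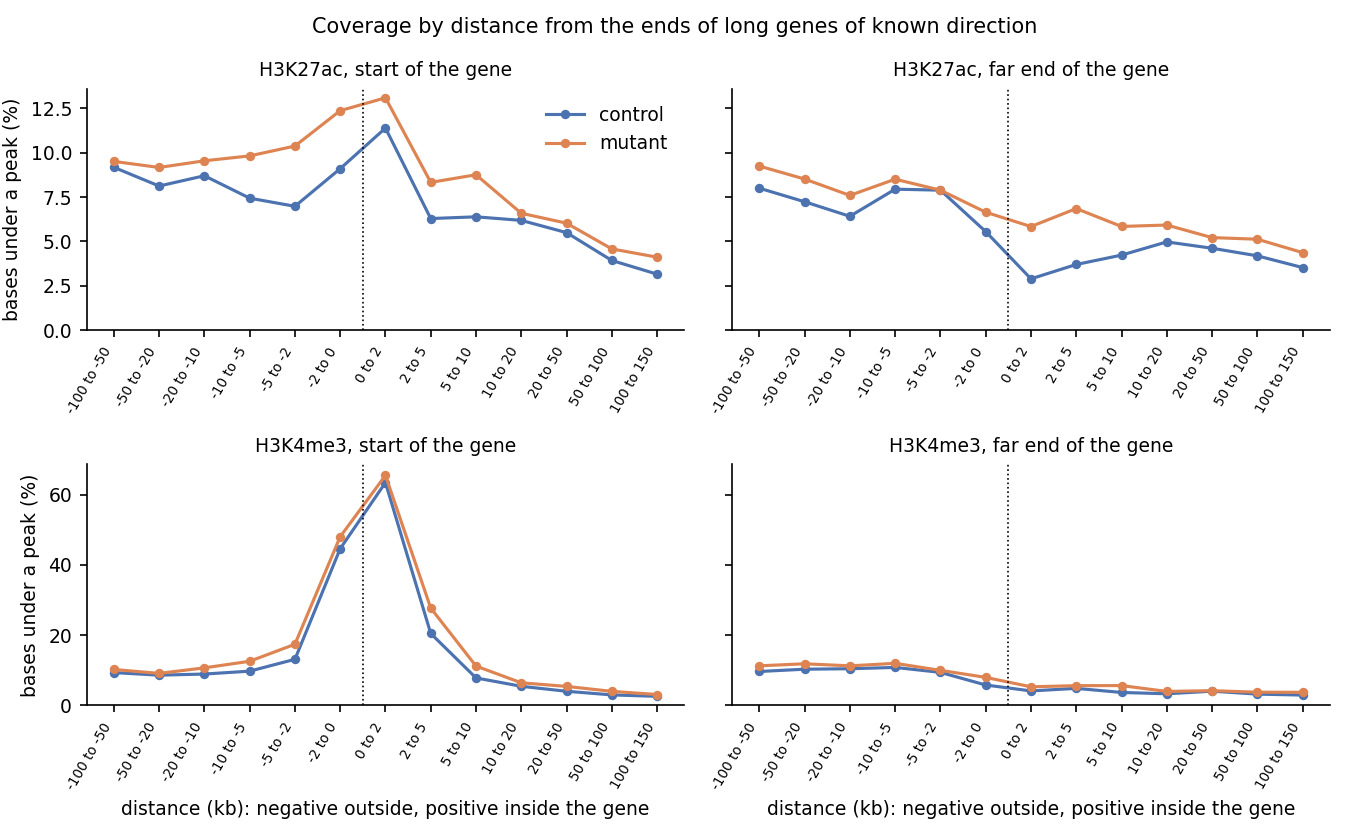
Percent of bases under a peak (y axis) by distance in kb from the start (left) and the far end (right) of 405 long genes of known direction, with negative distances outside the gene; the top row is H3K27ac, the bottom row H3K4me3, blue control and orange mutant, and the y scales of the rows differ. H3K4me3 reaches 63.4% in control and 65.5% in mutant just inside the start, while H3K27ac stays below 13.1% or at it throughout.

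Deep inside the genes both marks remained and were again higher in mutant. More than 100 kb from both ends, H3K27ac covered 2.501% in control and 3.34% in mutant and H3K4me3 2.14% and 2.70%. Within 100 kb of an end the values were 4.27% and 5.18% for H3K27ac and 3.85% and 4.86% for H3K4me3. The sequence 2 to 100 kb outside the ends, away from other protein-coding genes, held more, with 5.89% and 7.39% for H3K27ac and 7.39% and 8.69% for H3K4me3. Leaving out the starts and ends of genes that lie within long ones moved these values little. Without the end windows of other genes, body coverage was 3.10% and 3.96% for H3K27ac and 2.67% and 3.39% for H3K4me3. Whole genes lay inside 60 of the 533, at most 58 in Gm37013, which with Gm38666 and Gm38667 spans 1 cluster of many genes on chromosome 18, so that these 3 are not separate observations.

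At the gene ends, H3K4me3 was common and H3K27ac uncommon, and only H3K27ac was more frequent in mutant. A peak in at least 1 end window was found for H3K4me3 in 445 long genes in control (83.5%, against 76.4% of all protein-coding genes) and 433 in mutant (81.2%, against 75.1%). For H3K27ac there were 172 in control (32.3%, against 56.3%) and 263 in mutant (49.3%, against 59.3%). Of the 405 genes of known direction, 337 had H3K4me3 at the start in control (83.2%, against 72.8%) and 317 in mutant (78.3%, against 69.9%). H3K27ac was at the start of 89 in control (21.98%, against 46.9%) and 137 in mutant (33.8%, against 45.9%). At the far end, H3K4me3 marked 72 genes in each condition (17.8%, against 41.4% in control and 40.7% in mutant), and H3K27ac marked 61 (15.1%, against 37.9%) and 104 (25.7%, against 38.6%). With H3K27ac lists of equal size, 108 starts and 63 far ends were marked in mutant, so the excess over the 89 starts shrank and that over the 61 far ends nearly vanished. Over all genes, equal lists gave 41.4% of starts in mutant against 46.9% in control, and 33.3% of far ends against 37.9%.

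Of the 89 genes with an H3K27ac start peak in control, 46 also had one in mutant. A start peak was found in both lists for 46 genes (11.4%, against 30.9% of all genes), in control only for 43 (10.6%, against 16.1%) and in mutant only for 91 (22.5%, against 15.0%). Genes with the mark in both had the best covered bodies, with median H3K27ac coverage of 6.89% in control and 7.03% in mutant, against 1.61% and 2.61% for the 225 genes with none. Among the 91 with a start peak in mutant only, the body was also more covered in mutant in 71, beside 28 of the 43 with one in control only, 21 of the 46 with one in both, 141 of the 225 with none and 65.5% of all long genes. H3K4me3 starts were steadier, with 300 genes marked in both (74.1%, against 65.2%), 37 in control only (9.14%, against 7.55%) and 17 in mutant only (4.20%, against 4.72%). In the 300 genes, H3K4me3 covered a median of 2742.5 bp of the 4000 bp start window in control, against 3065.5 bp in mutant, and it was larger in mutant at 182, smaller at 99 and equal at 19. That count was not made over all genes. Over the whole of chromosomes 1 to 19, the H3K4me3 ratio of covered bases, mutant to control, was 1.11. Starts with H3K4me3 and no H3K27ac numbered 256 in control (63.2%, against 29.1%) and 194 in mutant (47.9%, against 29.8%), and those with both marks numbered 81 (against 43.7% of all genes) and 123 (30.4%, against 40.1%) of the 405.

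H3K4me3 at the starts went with the CpG number of the start window. Peak shares by CpG number were not computed for all protein-coding starts, so this relation is not shown to be particular to long genes. The RefSeq table lists 605 starts for these 405 genes, of which 352 lie within 2 kb of the outer end and 253 further inside. The outer starts had a median of 20 CpG in the 300 bases, the internal starts 7, and all protein-coding starts on these chromosomes 14. Of 136 outer starts with 25 or more CpG, a class that holds 25.7% of all protein-coding starts, 136 had an H3K4me3 peak within 2 kb in control and 128 in mutant (94.1%, interval 88.8 to 97.0). At 15 to 24 CpG the shares were 97.6% and 91.5% of 82 starts, at 5 to 14 CpG 71.4% and 67.3% of 98, and at 0 to 4 CpG 41.7% and 44.4% of 36. H3K27ac varied much less with CpG number. It was found at 19.4%, 19.4%, 24.4% and 28.7% of these starts in control, from the poorest to the richest class, and at 27.8%, 32.7%, 43.9% and 36.8% in mutant.

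The 8 CpG-rich outer starts that had H3K4me3 in control but not in mutant belong to 7 genes, which are named here after their values were seen. They are Fbxl7, Inpp4b, Khdrbs2, Vwa8, Gabrb1, a GABA receptor subunit, Kcnh1, a potassium channel, and Ube2e2, with 2 starts. At Ube2e2 and Fbxl7, whose sequences are printed above, the 39 and 31 CpG stand beside a control H3K4me3 coverage of 1239 and 1933 bp of the start window and of 0 bp in mutant. Kcnh1 and Vwa8 had H3K27ac at the same starts in mutant and not in control. Among the 17 genes with H3K4me3 at the start in mutant alone were Cntnap2, Hdac9, Nfia, Opcml and Tenm4, and the median CpG number of those with a listed outer start was 5.5, against 24 for genes marked in both lists.

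**Figure D4:**
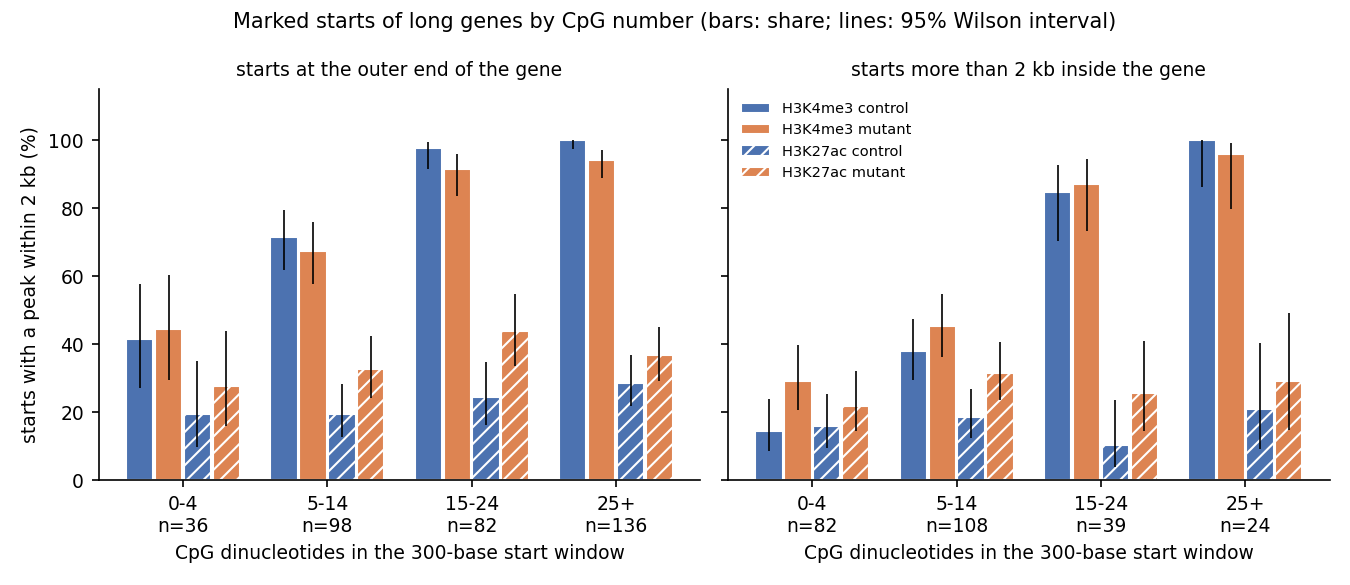
Percent of annotated starts of long genes with a peak within 2 kb (y axis) by the number of CpG in the 300-base start window (x axis, with the number of starts), for outer starts on the left and internal starts on the right; plain bars are H3K4me3, hatched bars H3K27ac, blue control and orange mutant, with 95% Wilson intervals. H3K4me3 climbs from 41.7% to 100% of outer starts in control and from 14.6% to 100% of internal starts, whereas H3K27ac lies between 10.3% and 43.9%.

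Starts inside the bodies also had more H3K4me3 where CpG were more numerous. Of the 253 internal starts, 110 had H3K4me3 in control (43.5%, interval 37.5 to 49.6) and 130 in mutant (51.4%, 45.3 to 57.5), and 42 and 69 had H3K27ac. These counts were not made for starts of other genes, nor with H3K27ac lists of equal size. All 24 internal starts with 25 or more CpG had H3K4me3 in control and 23 in mutant, and of the 82 with 0 to 4 CpG, 12 and 24 had it. H3K4me3 covered 33.8% of the 2 kb centred on internal starts in control and 37.5% in mutant, against 9.43% and 9.73% at 5 kb before them and 5.92% and 8.91% at 5 kb after them. H3K27ac covered 6.12% and 9.21% at the starts, 6.13% and 7.48% at 5 kb before them and 4.04% and 5.98% at 5 kb after them, so it differed far less between these places. Some of the H3K4me3 coverage counted as body is thus at annotated starts of shorter transcripts.

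Long genes were finally grouped by function. The lists were written from general knowledge, and only members that met the length rule were used. Of 43 synaptic adhesion and guidance genes, H3K27ac coverage was higher in mutant in 34 and lower in 9, with medians of 1.35% and 1.97%, beside 349 higher and 184 lower among all 533. Of the 43, 0 were lower by 2 points or more and 9 were higher by that much, beside 9.94% and 28.9% of all long genes. Genes with under 2% in control cannot fall by that much, and the control median of the list was 1.35%. The largest difference in this list was at Kirrel3, an adhesion gene, with 3.59% and 10.05% for H3K27ac and 11.85% and 16.9% for H3K4me3. Nrxn3, a neurexin, had 0.588% and 3.69% for H3K27ac. Dcc, a netrin receptor, had 2.53% and 1.23%. For H3K4me3, 28 of the 43 were higher and 15 lower, which at 65.1% is the share of all long genes, and the list medians were 1.505% and 1.31% in control and mutant.

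Among 35 ion channel and neurotransmitter receptor genes, H3K27ac was higher in 22 and lower in 13, and H3K4me3 was higher in 21 and lower in 13. The shares higher were 62.9% for H3K27ac and 60% for H3K4me3, beside 65.5% and 65.1% of all long genes. The H3K4me3 medians were 1.95% in each condition. Kcnip1, which encodes a subunit of potassium channels, had 1.55% and 10.8% for H3K27ac and 17.3% and 22.7% for H3K4me3. Ryr2, the calcium release channel of heart muscle, had 5.05% and 1.38% for H3K27ac with H3K4me3 at 2.05% and 2.26%. Gria4, a glutamate receptor gene, had 5.46% and 2.05% for H3K27ac and 2.32% and 1.46% for H3K4me3.

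Among the 40 transcription and chromatin regulators, a list that also holds the splicing regulators Rbfox1 and Rbfox3, H3K4me3 coverage was higher in mutant in 30 and lower in 10, with medians of 2.02% and 3.74%, and the median difference was 1.65 points, beside 0.459 points for all 533 genes, of which 65.1% were higher. H3K27ac was higher in 24 and lower in 16, or 60% higher beside 65.5% of all long genes. Mecom, a zinc finger factor of blood stem cells, had 4.68% and 11.5% for H3K4me3 and 1.27% and 5.20% for H3K27ac. Rora, a nuclear receptor, had 3.64% and 8.56% for H3K4me3, and Hdac9 had 1.39% and 5.63% for H3K4me3 and 1.63% and 5.45% for H3K27ac. Prdm16 was lower in mutant for both marks, with 7.52% and 5.71% for H3K4me3 and 4.38% and 0.314% for H3K27ac.

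Of 49 genes of signalling enzymes, kinases and receptors, 33 were higher and 16 lower for H3K27ac, with medians of 1.77% and 3.88%, and 32 were higher and 17 lower for H3K4me3. The shares higher, 67.3% and 65.3%, are near the 65.5% and 65.1% of all long genes. Ptprk, a receptor phosphatase, had 1.45% and 7.90% for H3K27ac and 2.53% and 2.37% for H3K4me3. Arhgap26 had the largest H3K27ac loss of the list, with 16.03% and 11.04%.

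Of the 14 common fragile site genes, 10 were higher and 4 lower for H3K27ac, with medians of 2.11% and 3.96%, while H3K4me3 was higher in 6 and lower in 8. The shares higher were 71.4% and 42.9% of these few genes, beside 65.5% and 65.1% of all long genes. Wwox, an oxidoreductase gene, had 6.92% and 6.74% for H3K27ac and 3.69% and 4.28% for H3K4me3. Fhit, a nucleoside hydrolase gene, had 2.30% and 1.92% for H3K27ac and 1.09% and 1.19% for H3K4me3. Immp2l, of the mitochondrial inner membrane protease, had 5.94% and 7.40% for H3K27ac and 5.19% and 2.57% for H3K4me3. The 30 genes of polarity, membrane traffic and cytoskeleton, a list that also holds genes of other roles such as Rad51b and Msi2, were better covered by H3K27ac than the other lists, with medians of 5.45% in control and 6.02% in mutant, and were split into 18 higher and 12 lower, or 60% higher beside 65.5% of all long genes. Their H3K4me3 was higher in 22 and lower in 8, or 73.3% higher beside 65.1% of all long genes. Ulk4 had 10.5% and 4.20% for H3K27ac and 2.98% and 4.73% for H3K4me3, and Msi2, which binds RNA, had 10.5% and 12.05% for H3K27ac and 10.45% and 16.5% for H3K4me3. A seventh list, of oocyte and early embryo genes, had no member of this length.

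**Figure D5:**
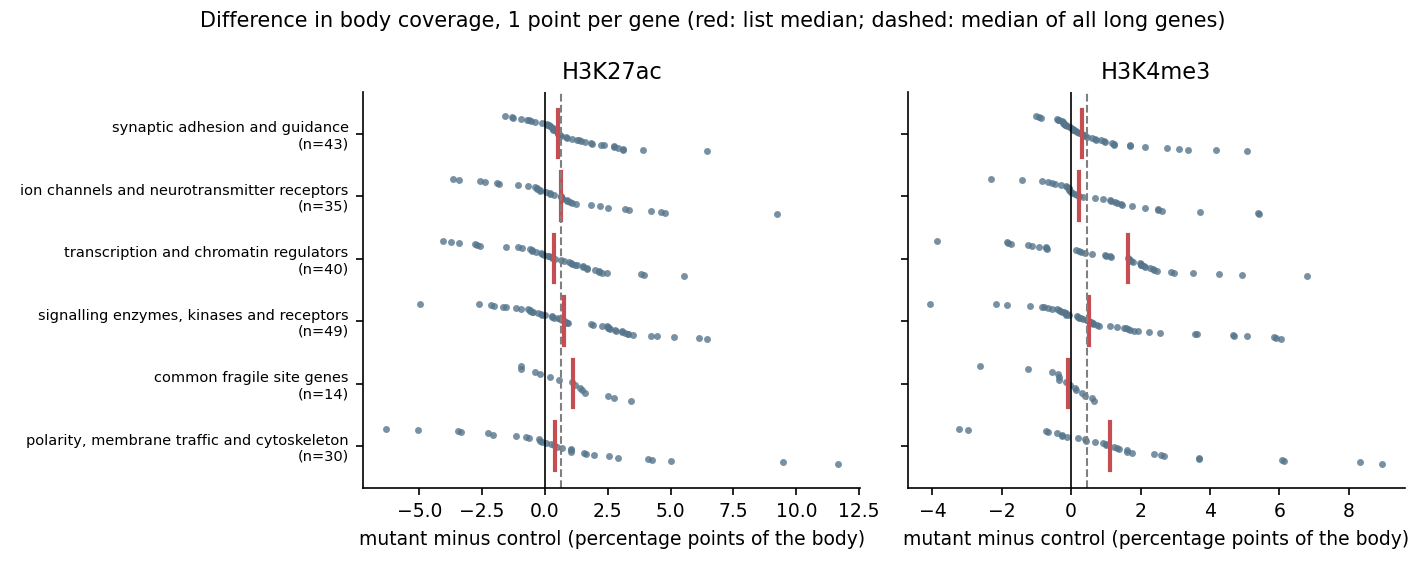
Mutant minus control body coverage in percentage points (x axis), for H3K27ac on the left and H3K4me3 on the right, for 6 functional lists of long genes (y axis, with the number of genes), 1 point per gene; the red bar is the list median, the dashed line the median of all 533 genes (0.641 points for H3K27ac, 0.459 for H3K4me3). Points lie on both sides of 0 in each list, and the transcription and chromatin regulators have the list median farthest to the right for H3K4me3, at 1.65 points.

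The difference was spread over most chromosomes. The ratio of covered bases in long bodies, mutant to control, was above 1 on 17 of 19 chromosomes for H3K27ac, with a range of 0.832 to 1.83, and on 19 of 19 for H3K4me3, with a range of 1.03 to 1.504. The exceptions for H3K27ac were chromosome 14, at 0.832, which carries Ube2e2, and chromosome 17, at 0.974, which carries Btbd9. On 18 of 19 chromosomes the ratio of long bodies exceeded that of the whole chromosome, for each mark. Just inside the limit of 300 kb, Zfp423 (300244 bp) had 9.89% and 5.82% of its body under H3K27ac and Kcnq3 (300263 bp) 1.53% and 0.805%, and just outside it Akap13 (299084 bp) had 15.05% and 12.5% and Atp2b2 (298783 bp) 0.117% and 2.08%.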

How the data were processed

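The data were 4 deposited peak lists, 1 per mark and condition. Both libraries of a group share a list in the labels, and whether their reads were joined for peak calling is not given in the sources used here. Each list gives chromosome, start and end only, so the authors' peaks could be neither ranked nor filtered by strength. Per the submitters' processing notes, the builds are mm10 and GRCm38 and the tools named are CASAVA, Trimmomatic, Bowtie2, SAMtools, Picard, MACS2 and deepTools, with no versions or roles. The smallest peak widths (168, 149, 169 and 182 bp for control and mutant H3K27ac, then H3K4me3) and smallest gaps (681, 602, 684 and 734 bp) differ between lists, which can change peak number and width.

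Positions were read as BED intervals with Python 3.11.15, numpy 2.4.6 and pandas 2.3.3, and are printed 1-based. Peaks outside chromosomes 1 to 19 were left out. Body coverage is the percent of body bases under a peak. All 533 genes entered, with no filter on low values. Coverage was computed for genes of 5 kb or more, and an end window was marked by an overlap of 1 bp. Direction and sequences came from RefSeq start windows of GRCm38.p6, which matched 405 of the 533 genes, and 330 of these have a start within 2 kb of the outer end. Named genes were the 5 longest, the 5 highest, 5 most lowered and 5 most raised per mark, the middle of each ranking, the widest body peaks and members of the gene lists. The genes, lists and rules were chosen with earlier results of these data known. Input libraries were not analysed here, and exons and introns were not told apart. Wilson intervals (scipy 1.17.1) are at 95%. The interval functions were tested on simulated data. Comparisons are between lists, with no replicate error and no p-values. Values of some single genes are not reported here.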

Additional observations from a re-analysis of the deposited data

How the results depend on the processing

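No paired analysis was possible because both libraries of a group share 1 peak list, so no library could be left out either. Of 104 recomputed values, 59 stayed within the 95% Wilson interval of the reported share or equal to 3 digits, 45 moved, and 0 of the covered-base ratios crossed 1. Shared minimum gaps and widths for all lists, and the start windows and length classes with equal lists, were chosen after the data were seen.

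In genes of 500 kb or more the covered-base ratios were 1.33 for H3K27ac and 1.23 for H3K4me3, H3K4me3 bases under H3K27ac 21.1% in control and 16.2% in mutant, marked ends 40.7% (H3K27ac, mutant) and 80.1% (H3K4me3, control), and genes below the median body coverage of all protein-coding genes 89.8%, 93.1%, 97.7% and 97.7% (control and mutant H3K27ac, then H3K4me3). These last shares were 83.3%, 87.2%, 94.4% and 95.5% with all long genes. Without peaks under 1 kb the ratios were 1.19 and 1.28, the shared bases 29.9% and 20.3%, marked ends 19.9% and 31.3% for H3K27ac and 78.6% for control H3K4me3, and the mutant H3K27ac share below the median 83.9%. Merging peaks less than 1 kb apart gave an H3K27ac ratio of 1.315 and shared bases of 27.3% and 21.05%. Lists of equal size gave the H3K27ac ratio of 1.09, 46.9% of genes lower, 36.02% marked mutant ends and 19.02% shared bases in mutant; this setting drops only narrow mutant H3K27ac peaks. Bodies beyond 5 kb gave a ratio of 1.27, shared bases of 27.3% and 20.02%, and H3K4me3 shares below the median of 86.5% in control and 85.2% in mutant, the opposite order to 94.4% and 95.5%. Taking out end windows of other genes gave 26.95% shared bases in control and an H3K4me3 ratio of 1.27. Shared gaps and widths gave shared bases of 27.2% and 20.4% and 44.65% marked mutant H3K27ac ends. H3K27ac ends were marked in 25.3% and 37.5% with windows of 1 kb, 48.6% and 68.3% with 5 kb (H3K4me3 89.1% and 86.1%), and 24.8% and 35.1% when 500 bp had to be covered. Among genes that differed by at least 2 points, 25.6% were lower for H3K27ac and 20.1% for H3K4me3, a fall that genes with under 2% in control cannot have. Other causes of these shifts were not tested.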

Other observations

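Among long genes the H3K27ac difference went with the control level, a description in which both measures share the control list. Over all long genes, 65.5% were higher in mutant for H3K27ac and 65.1% for H3K4me3. Counts by control level were not made over all protein-coding genes. Of 156 long genes with under 1% of the body under H3K27ac in control, 119 were higher in mutant, with medians of 0.614% and 1.30%. Of 114 genes at 1 to 2%, 93 were higher. Of 83 genes at 5 to 10%, 38 were higher and 45 lower, and of 36 genes at 10% or more, 9 were higher and 27 lower, with medians of 13.1% and 11.1%. H3K4me3 did not show this order at the top. Of 28 genes with 10% or more under H3K4me3 in control, 18 were higher in mutant and 10 lower, with medians of 13.9% and 17.5%. Across the 533 genes, Spearman's rank correlation between the H3K27ac and the H3K4me3 difference was 0.32, over genes that share libraries and are not independent. Within these genes, length and H3K27ac difference were unrelated, with a rank correlation of -0.00018, although the ratio of pooled coverage climbed over the length classes.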
